A study of Mus musculus with 4 samples.

Results

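The serine and folate one-carbon enzymes considered here are the products of 9 genes, taken by symbol from the 22180 genes that a single-symbol probe set represented on the array. They are the serine synthesis genes Phgdh, Psat1 and Psph and the cytosolic folate enzyme genes Shmt1 and Mthfd1, which make up the 5 cytosolic members, and the 4 mitochondrial members Shmt2, Mthfd2, Mthfd1l and Aldh1l2. All 9 were measured, each by 1 probe set. They were selected on the pathway and with their measured GSK126 minus DMSO differences on these arrays already known, so those differences are given as a description and without a test.

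RNA was hybridised to single-channel Affymetrix mouse arrays after 96 h with 2 µM GSK126 (2 arrays) or with the vehicle DMSO (2 arrays). GSK126 inhibits EZH2, the methyltransferase that trimethylates lysine 27 of histone H3. Both groups came from breast cancer cell lines derived from mammary tumours of female FVB mice carrying MMTV-NIC, a transgene whose mouse mammary tumour virus promoter drives an activated ErbB2 and, through an internal ribosome entry site, Cre recombinase in mammary epithelium. All arrays therefore share the oncogene, Cre and a culture medium with serum, EGF, hydrocortisone, insulin and pituitary extract, and the labels leave unstated if a replicate is its own culture, its own line or part of 1 clone. Values are log2 expression values, changes are GSK126 minus DMSO on that scale, and the standard error (SE) of a change comes from a limma fit across all genes. With 2 arrays a group, the number of arrays limits the precision.

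Cells make serine from a glycolytic intermediate: PHGDH oxidises 3-phosphoglycerate, PSAT1 transfers an amino group to the product from glutamate, and PSPH removes the phosphate. Serine hydroxymethyltransferases then pass a carbon of serine to tetrahydrofolate, in the cytosol through SHMT1 and in mitochondria through SHMT2. In mitochondria, MTHFD2 oxidises that unit and MTHFD1L releases it as formate. MTHFD1 takes formate up into the cytosolic folate pool, and ALDH1L2 burns formyl units to carbon dioxide in mitochondria. The units feed purine, thymidylate and methyl group synthesis, and the pathway is known for its high activity in proliferating tumour cells, where the transcription factor ATF4 drives many of its genes.

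Any pair of arrays correlated at 0.981 to 0.988 across probe sets, and the 3 lowest values were those of GSK126 replicate 2. Across all 22180 genes, 58 rose and 38 fell with GSK126 at an adjusted p under 0.05 in limma, or 0.433% in all, and after centring every array on its median 55 were higher and 62 lower. The count was 0 to 4 when any of the 4 arrays was left out. Of 9 mammary epithelial markers, 8 lay between 8.45 and 11.7 in every array, led by the keratin gene Krt18, while Krt19 was at 4.62 to 4.89. The leukocyte gene Ptprc was at 3.44 and 3.58 with GSK126, against 3.67 and 3.37 with DMSO, below the dim level of 4.77 (the 40th percentile of mean level). The macrophage-associated gene Cd68 rose by 1.0 (SE 0.09, adjusted p = 0.010 in limma). It made up most of the log2 summed level of 7 leukocyte markers, 9.41 and 9.37 with GSK126 against 8.68 and 8.61 with DMSO. Of these 7 markers, 5 were dim in both groups and 5 had a lower mean with GSK126, and their median change was -0.15. The oxytocin receptor gene Oxtr fell by 0.75 (SE 0.11, adjusted p = 0.0479 in limma), and the summed level of 5 basal markers was 7.98 and 7.90 with GSK126, against 8.31 and 8.31 with DMSO. The other basal markers went both ways, with changes of -0.51 for Krt14, -0.093 for Myh11, 0.068 for Acta2 and 0.12 for Trp63, none of which passed. The part of these markers in the values below was not tested. In RNA from a whole culture, fewer cells of a type and less RNA per cell cannot be told apart.

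Psat1 carried the largest difference of the 9 genes. Its level was 7.72 and 7.78 with GSK126, against 8.49 and 8.48 with DMSO. The groups lay far apart and their replicates close together, with a gap of 0.059 between the GSK126 arrays and of 0.012 between the DMSO arrays. The change was -0.74 (SE 0.09), a level 0.60 times that of DMSO, and 0.234% of all genes had a change as low or lower. The enzyme on either side of it in the serine pathway did not share that size. Phgdh, whose enzyme starts the pathway, was at 5.79 and 5.99 with GSK126, against 5.67 and 5.70 with DMSO. Both treated arrays lay above both controls, but the change of 0.20 (SE 0.13) was about as large as the gap between the GSK126 arrays, at 1.01 times that gap. Psph, the last step, was at 5.95 and 6.29 with GSK126, against 6.26 and 6.31 with DMSO. Its groups overlapped, since GSK126 replicate 1 was low and replicate 2 sat among the controls, and the change of -0.17 (SE 0.14) became 0.00015 without GSK126 replicate 1. Within each array, Psat1 minus Phgdh was 0.87 and 1.01 below its DMSO mean in the GSK126 arrays, against deviations of 0.020 and -0.020 in the DMSO arrays, so these 2 steps of one pathway did not move together.

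**Figure D1:**
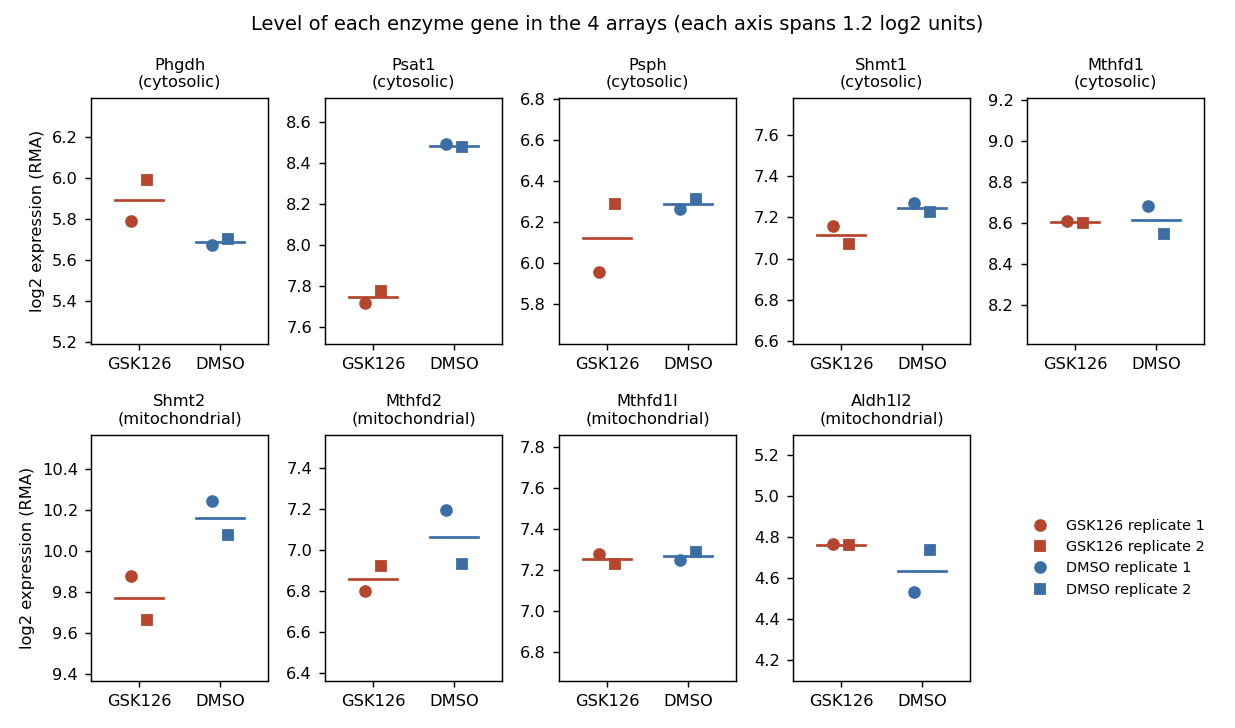
Level of each of the 9 enzyme genes (vertical axis, log2 expression, 1.2 units per panel) in GSK126 arrays (left, red) and DMSO arrays (right, blue), with circles for replicate 1, squares for replicate 2 and a line at the group mean. Psat1 shows GSK126 values of 7.72 and 7.78 far below DMSO values of 8.49 and 8.48, and Shmt2 shows a smaller gap, while Mthfd1, Mthfd1l and Psph overlap between groups.

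Shmt2, the mitochondrial serine hydroxymethyltransferase gene, came next. It was at 9.88 and 9.67 with GSK126, against 10.2 and 10.1 with DMSO. Both treated arrays were below both controls and the change was -0.39 (SE 0.10), a level 0.762 times that of DMSO, and 1.82 times as large as the wider gap between replicates. Its cytosolic counterpart Shmt1 was at 7.16 and 7.07 with GSK126, against 7.27 and 7.22 with DMSO. These groups did not overlap either, at a change of -0.13 (SE 0.10). Within an array, Shmt2 minus Shmt1 stood 0.20 and 0.32 below its DMSO mean in the GSK126 arrays, with deviations of 0.058 and -0.058 in the DMSO arrays. The mitochondrial form was thus the more reduced of the 2 genes in both treated arrays.

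The remaining folate enzyme genes gave small differences. Mthfd2, the mitochondrial dehydrogenase and cyclohydrolase gene that is high in many tumours, was at 6.80 and 6.92 with GSK126, against 7.19 and 6.93 with DMSO. GSK126 replicate 2 and DMSO replicate 2 were nearly level, and the change of -0.20 (SE 0.12) was smaller than the gap of 0.26 between the DMSO arrays. It was -0.071 without DMSO replicate 1 and -0.33 without DMSO replicate 2. Mthfd1l, the mitochondrial formyl-tetrahydrofolate synthetase gene, was at 7.28 and 7.23 with GSK126, against 7.25 and 7.29 with DMSO, and the change was -0.015 (SE 0.10). Its cytosolic relative Mthfd1 was at 8.61 and 8.60 with GSK126, against 8.68 and 8.55 with DMSO, a change of -0.0091 (SE 0.09). The groups overlapped for both genes, and their difference Mthfd1l minus Mthfd1 differed by -0.0056 between groups. Aldh1l2 was dim in both groups, at 4.77 and 4.76 with GSK126, against 4.53 and 4.74 with DMSO. Its change of 0.13 (SE 0.15) was smaller than the gap of 0.20 between the DMSO arrays, and for a dim gene its size is uncertain.

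Of the 9 genes, 7 had a lower mean with GSK126 and 2, Phgdh and Aldh1l2, a higher one, beside 52.0% of all genes with a lower mean. GSK126 and DMSO values did not overlap for 6 of them, beside 40.1% of all genes. Of these, 4 were lower (Psat1, Shmt1, Shmt2 and Mthfd2), beside 21.8% of all genes, and 2 higher, beside 18.2%. Psat1 alone passed the threshold of the fit across all genes, 1 of 9 beside 0.433% of all genes, and nothing is read from this count because the list was drawn up with this contrast known.

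**Figure D2:**
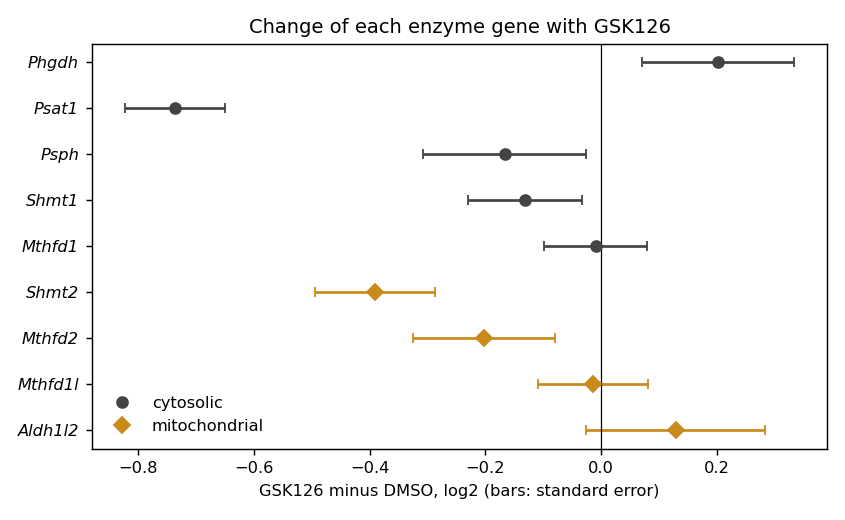
Change of each enzyme gene with GSK126 (horizontal axis, GSK126 minus DMSO in log2 units, bars of 1 standard error), with cytosolic enzymes as circles above mitochondrial ones as diamonds. Psat1 at -0.74 and Shmt2 at -0.39 stand out to the left, 1 in each compartment, and the other 7 lie between -0.20 and 0.20.

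The compartments did not separate. The mean change was -0.12 over the 4 mitochondrial enzymes and -0.17 over the 5 cytosolic ones. The mean of the mitochondrial enzymes stood at -0.10 and -0.14 relative to its DMSO mean in the GSK126 arrays, with deviations of 0.023 and -0.023 in the DMSO arrays. That of the cytosolic enzymes stood at -0.22 and -0.12 in the GSK126 arrays, with 0.012 and -0.012 in the DMSO arrays. Mitochondrial minus cytosolic was 0.12 in GSK126 replicate 1 and -0.020 in GSK126 replicate 2, so its mean of 0.048 was smaller than the spread between these arrays (SD 0.10, n = 2) and its sign turned without GSK126 replicate 1. Within the cytosol, the serine synthesis genes averaged -0.33 and -0.13 in the GSK126 arrays, against -0.011 and 0.011 in the DMSO arrays, and Psat1 was the lowest of the 3 in both GSK126 arrays. The cytosolic folate pair Shmt1 and Mthfd1 averaged -0.047 and -0.094 in the GSK126 arrays, against 0.046 and -0.046 in the DMSO arrays. The larger differences therefore followed single genes in each compartment. No p is given for these averages, since their members were listed with the results known.

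**Figure D3:**
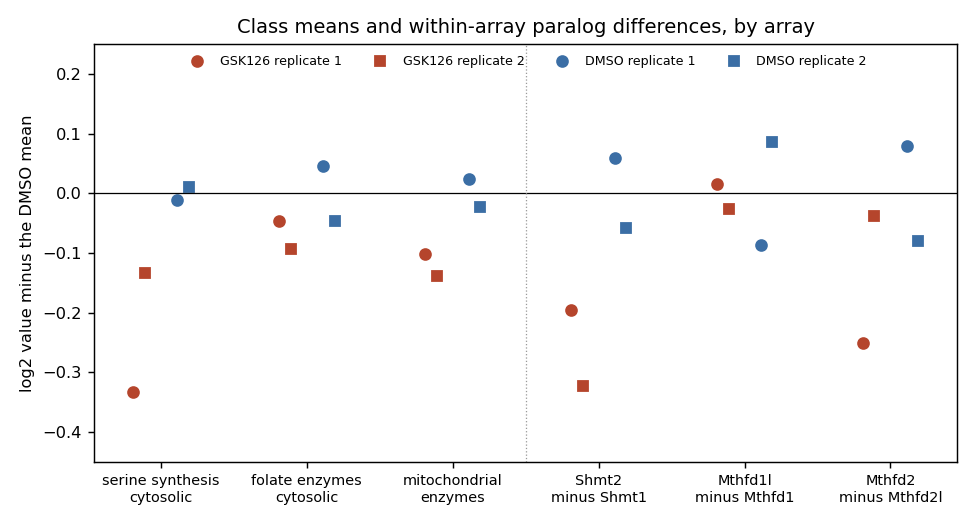
Mean of each enzyme class (left of the dotted line) and difference between related genes (right of it) in each array, as the log2 value minus the DMSO mean on the vertical axis, with GSK126 arrays in red and DMSO arrays in blue. The 3 class means are below 0 in both GSK126 arrays, and that of the cytosolic folate enzymes is nearest to 0 in each. Shmt2 minus Shmt1 is lower in both GSK126 arrays (-0.20 and -0.32), and Mthfd1l minus Mthfd1 overlaps.

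Promoter sequence was looked at for what the members share beyond the list. RefSeq windows (GRCm38.p6), from 250 bases before to 50 bases after an annotated start, matched 8 of the 9 genes in 9 windows, Psat1 having 2 starts. The stretches before the start are shown for Psat1 and Shmt2, the genes with the lowest values relative to DMSO, and for Phgdh, which lay the other way. They are written 5′ to 3′ on the gene's strand, with CpG dinucleotides in capitals, because CpG-rich promoters are the usual places where the EZH2 complex binds in mammals.
Psat1, chr19:15924623-15924872, minus strand: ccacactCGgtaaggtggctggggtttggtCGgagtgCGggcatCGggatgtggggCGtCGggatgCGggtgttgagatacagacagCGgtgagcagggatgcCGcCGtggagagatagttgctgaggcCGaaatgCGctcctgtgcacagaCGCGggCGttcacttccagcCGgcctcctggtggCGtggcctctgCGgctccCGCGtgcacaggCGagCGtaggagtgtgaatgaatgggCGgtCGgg
Psat1, upstream start, chr19:15925060-15925309, minus strand: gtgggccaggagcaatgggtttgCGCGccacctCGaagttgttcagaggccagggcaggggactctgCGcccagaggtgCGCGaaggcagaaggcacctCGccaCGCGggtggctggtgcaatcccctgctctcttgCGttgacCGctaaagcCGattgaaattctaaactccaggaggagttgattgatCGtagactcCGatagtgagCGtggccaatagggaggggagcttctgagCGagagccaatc
Shmt2, chr10:127522445-127522694, minus strand: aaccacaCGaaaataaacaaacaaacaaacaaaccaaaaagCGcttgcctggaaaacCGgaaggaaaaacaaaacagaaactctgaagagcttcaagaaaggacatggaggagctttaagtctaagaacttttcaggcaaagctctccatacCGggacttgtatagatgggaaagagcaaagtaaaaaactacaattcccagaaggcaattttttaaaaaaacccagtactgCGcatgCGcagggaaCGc
Phgdh, chr3:98339970-98340219, minus strand: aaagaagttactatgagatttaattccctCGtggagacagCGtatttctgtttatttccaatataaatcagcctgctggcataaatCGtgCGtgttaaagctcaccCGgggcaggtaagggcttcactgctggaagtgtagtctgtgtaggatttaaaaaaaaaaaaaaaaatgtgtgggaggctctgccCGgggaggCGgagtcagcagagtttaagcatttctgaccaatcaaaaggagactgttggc
The Psat1 stretches held 24 and 16 CpG and those of Shmt2 and Phgdh 7 each. Over the full windows of 300 bases, CpG counts were 30 and 20 for Psat1, 28 for Psph, 17 for Shmt1, 16 for Mthfd1, 15 for Mthfd2, 13 for Shmt2, 11 for Phgdh and 8 for Mthfd1l, against a median of 7 over all 32851 windows (interquartile range 3 to 20). Every member window was thus above that median. The relation of CpG count to the changes was not tested, and no chromatin was measured here.

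The windows were also searched on both strands for TGATGNAA, the core of the element bound by ATF4 with C/EBP proteins, and for CACGTG, the E-box bound by MYC. Neither was present in a window of the 8 members, beside 3.97% of all windows with TGATGNAA and 7.15% with CACGTG. In the same windows, 10 of 21 genes on a list of Atf4 and its targets held TGATGNAA. The matches in 3 of those genes are shown because their values come below, with the motif or its reverse complement in capitals.
Asns, chr6:7693215-7693242, minus strand: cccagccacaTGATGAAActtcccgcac
Nupr1, chr7:126625563-126625590, minus strand: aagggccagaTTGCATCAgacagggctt
Slc7a11, chr3:50443662-50443689, minus strand: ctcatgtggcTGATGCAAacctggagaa
Slc7a11, downstream match, chr3:50443643-50443670, minus strand: cctggagaatTTGCATCAtcatgcagcc
A match is a description of the letters in a window, not a binding site.

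The other genes around these enzymes were taken from 6 lists with 98 memberships, of which 84 were measured, each a different gene. Of the 84, 1 fell, 0 rose and 83 did not pass, a share set beside 0.171% of all genes that fell. In limma, 13 were lower and 6 higher before adjustment, at a p under 0.05, a cut that 5.93% of all genes passed as lower and 4.64% as higher. Their median change was -0.058, against -0.0077 over all genes tested, and 57 had a lower mean, beside 52.0% of all genes. The lists were written with earlier results of these data known. Their counts, medians and p-values, here and below, are therefore a description and no independent support.

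Folate cycle and transport genes held the 1 decrease. Folr1, the folate receptor that carries folate into cells by endocytosis, was at 5.45 and 5.28 with GSK126, against 6.22 and 6.27 with DMSO. Both treated arrays were clearly lower, and the change was -0.87 (SE 0.13, adjusted p = 0.0461 in limma). Over its 11 alternatives the adjusted p ran from 0.0202 to 0.466, and the call ended without any 1 of the 4 arrays, without the intensity trend and with the replicate number as a block. Of the 15 genes measured on this list, 14 had a lower mean, beside 52.0% of all genes, and the median change was -0.17. Tyms, the thymidylate synthase gene, did not pass, at 8.11 and 8.18 with GSK126, against 8.70 and 8.31 with DMSO (change -0.36, SE 0.13, adjusted p = 0.403 in limma). The proton-coupled folate transporter gene Slc46a1 (-0.21) and Ggh (-0.19), which trims folate polyglutamates, did not pass either. Mthfd2l, the mitochondrial relative of Mthfd2, differed by -0.058 (SE 0.10).

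Among 14 genes of serine and glycine transport and use, 0 passed in limma, and the median was -0.019. Before adjustment 1 was higher and 1 lower (p under 0.05 in limma), beside 4.64% and 5.93% of all genes. Slc1a5, a neutral amino acid exchanger best known for glutamine, was at 6.71 and 6.49 with GSK126, against 7.37 and 7.03 with DMSO (change -0.60, SE 0.14, adjusted p = 0.208 in limma), and -0.20 when its probe sets were averaged. The other genes with the smallest p were Srr (0.24), which makes D-serine, the serine transporter gene Slc7a10 (0.29) and the glycine cleavage gene Gcsh (0.19). The methionine cycle and transsulfuration list had the only positive median among the 6, 0.053 over 15 genes. Of these, 11 had a higher and 4 a lower mean, beside 52.0% of all genes with a lower mean. In limma 0 of the 15 passed, and before adjustment 1 was higher and 2 were lower (p under 0.05), beside 4.64% and 5.93% of all genes. The spermidine synthase gene Srm was at 8.35 and 8.31 with GSK126, against 8.95 and 8.61 with DMSO, a change of -0.45 (SE 0.12) that did not pass. Mat1a (0.43), which makes S-adenosylmethionine, the choline dehydrogenase gene Chdh (-0.44) and Bhmt2 (0.21) did not pass. Bhmt2 was dim in both groups, and its change was -0.0014 without GSK126 replicate 1. Mat2a, also on this list, was not measured.

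Genes of purine synthesis, only some of which encode enzymes that use formyl-tetrahydrofolate, had a median of -0.11 over 11 genes. Of these, 10 had a lower mean, beside 52.0% of all genes. In limma 0 passed, and before adjustment 3 of the 11 were lower and 0 higher (p under 0.05), beside 5.93% and 4.64% of all genes. Ppat, the committed step of the pathway, was at 7.91 and 7.73 with GSK126, against 8.14 and 8.20 with DMSO (change -0.35, SE 0.10, adjusted p = 0.295 in limma). Adssl1 (-0.31), Paics (-0.26) and Gart (-0.12) followed, and the change of Gart was 0.13 with its probe sets averaged.

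Atf4 itself was at 9.34 and 9.37 with GSK126, against 9.23 and 9.53 with DMSO, and its groups overlapped (change -0.026, SE 0.11). The list of Atf4 and its targets had a median of -0.046 over 23 genes. None passed in limma (0 of 23), where before adjustment 5 of the 23 were lower and 4 higher (p under 0.05), beside 5.93% and 4.64% of all genes. Slc7a5, a subunit of the large neutral amino acid transporter, was closest, at 10.4 and 10.2 with GSK126, against 11.0 and 10.9 with DMSO (change -0.64, SE 0.10, adjusted p = 0.0506 in limma). Its groups did not overlap, and it passed under 4 of 11 alternatives. Slc7a11, the cystine transporter gene whose matches are shown above, was at 6.27 and 6.23 with GSK126, against 6.65 and 6.81 with DMSO (change -0.48, SE 0.11, adjusted p = 0.205 in limma). With its probe sets averaged, the change of Slc7a11 was -0.31. Aldh18a1, which starts proline synthesis, differed by -0.49 (SE 0.12) and the stress gene Nupr1 by 0.38 (SE 0.09), and neither passed. Asns, the asparagine synthetase gene and a standard ATF4 target, differed by -0.026 (SE 0.14). Other targets on the list also held a promoter match. Of these, Atf3 differed by 0.40, Chac1 by 0.021, Trib3 by -0.010, Gars by -0.038 and Vldlr by -0.17, and none passed. Aars and Pycr1 held a match and were not measured. The part of ATF4 in these values was not tested. None of the 6 other regulators passed in limma (0 of 6, with 0 at an unadjusted p under 0.05). The changes with the smallest p on that list were those of the demethylase gene Kdm4c (0.17), the methyltransferase gene Ehmt2 (-0.09), Mycn (-0.19) and Myc (-0.10).

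**Figure D4:**
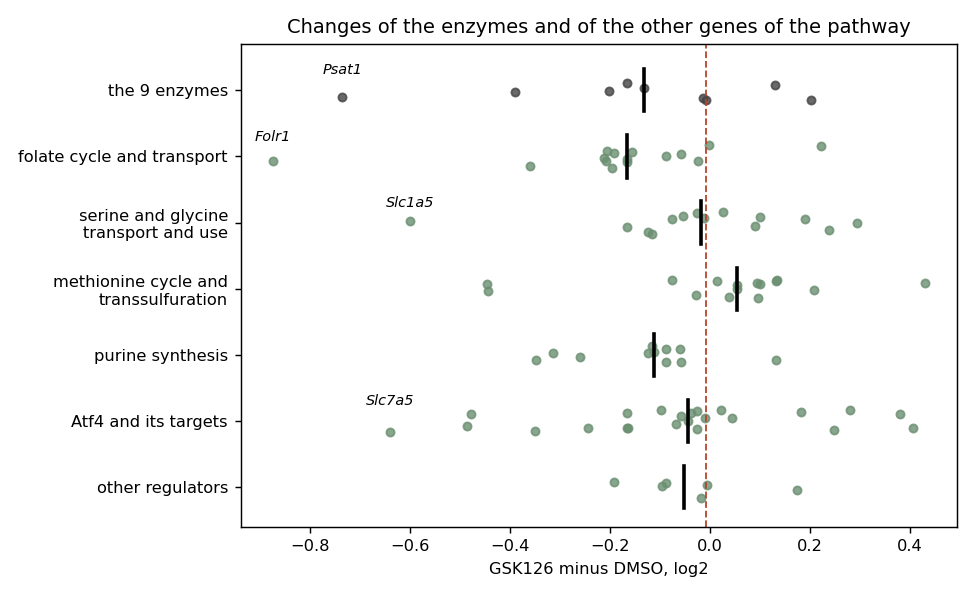
Change with GSK126 (horizontal axis, GSK126 minus DMSO in log2 units) of the 9 enzymes and of the genes on 6 surrounding lists, 1 point per gene, with a black bar at each median and a dashed line at the median of all genes (-0.0077); vertical scatter within a row has no meaning. The medians run from -0.17 for folate cycle and transport to 0.053 for the methionine cycle, and Folr1 at -0.87 lies furthest left.

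The genes most like Psat1 over the 4 arrays were Lipt2, Dapk1 and Cxcr4, by the root-mean-square distance between values centred on each gene's mean. Lipt2, which attaches a lipoyl precursor to mitochondrial proteins, lay at a distance of 0.030, with 6.79 and 6.91 for GSK126 against 7.56 and 7.54 for DMSO. The death-associated kinase gene Dapk1 lay at 0.043, with 6.65 and 6.77 for GSK126 against 7.39 and 7.35 for DMSO. The chemokine receptor gene Cxcr4 lay at 0.050, with 6.23 and 6.23 for GSK126 against 7.05 and 6.91 for DMSO. All 3 show the same step between groups, by which they were chosen. Of the other members, Shmt2 was nearest to Psat1, at 0.21, with 499 genes closer, and Phgdh was farthest, at 0.47.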

How the data were processed

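The deposited values are log2 expression values made by the authors with Expression Console (robust multi-array averaging, core-exon analysis), per the labels. Affymetrix Power Tools is named in the submitters' processing notes. The build of the genome is not named in these sources. Of 41345 probe sets, the platform annotation gave 1 symbol to 23521, several to 1814 and none to 16010, and where a gene had several probe sets, that of highest mean was used. Array values compress differences of dim genes.

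GSK126 minus DMSO was fitted with limma 3.58.1 in R 4.3.3 (prior variance with an intensity trend, moderated two-sided test), and p was adjusted by Benjamini-Hochberg over 22180 genes (2 residual degrees of freedom, prior 5.57). The threshold was an adjusted p of 0.05. The code was tested on simulated data. P-values reflect no more than the spread among these 4 arrays, possibly a technical one. Scan dates were not used here. Alternatives changed the prior, the filter on dim genes, the probe set choice, centring, quantile normalization, a replicate block and each array.

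The members and lists were chosen with earlier results of these data known. Named genes are the members, the up to 4 genes of each list with the smallest p and any past the threshold, and the 3 profiles nearest to the member with the largest change. Asns, Atf4, Mthfd2l, the further Atf4 targets with a promoter match and the markers named were added after their values were seen. Promoter windows came from RefSeq.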

Additional observations from a re-analysis of the deposited data

How the results depend on the processing

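Over all genes, the count past the threshold was 96 as reported. It was 149 without dim genes, with 66 decreases, and 62 decreases with each array centred. It was 10 with the replicate number as a block, with 8 increases and 2 decreases, and 0 in limma without the intensity trend, with 0 increases and 0 decreases and 1964 at an unadjusted p under 0.05. Without 1 of the arrays there were 0 to 4 calls (0 to 3 increases, 0 to 1 decreases), and 1771 to 2100 at an unadjusted p under 0.05. Deviations from the group mean correlated at -0.025 across genes between GSK126 replicate 1 and DMSO replicate 1. With 2 arrays a group, the replicate 2 arrays give the same value by construction, so this cannot decide if the arrays were paired. The main fit does not use the number as a pairing.

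Among the 9 enzymes, the 1 call, that of Psat1, was lost without the trend, with the replicate block and without any 1 array. Nothing is read from this call, because the list was drawn up with this contrast known. The change of Psat1 stayed between -0.79 and -0.69 over 8 alternatives. Among these, probe set averaging and the replicate block leave it at -0.74 by construction. The other genes of the pathway held 2 calls, Folr1 and Slc7a5, with a robust prior, without dim genes, with centred arrays and after quantile normalization. They held 0 in limma without the trend and with the replicate block. In these 2 fits 13 and 16 of the 84 had an unadjusted p under 0.05, beside 1964 and 2124 of 22180 genes. No call was left without any 1 array. The mean change became -0.17 for mitochondrial and -0.22 for cytosolic enzymes with centred arrays. Signs turned under some alternatives for Psph, Mthfd1, Mthfd1l, Bhmt2, Gart, Mycn and Myc, none of which passed. Apart from probe set averaging, which the 9 enzymes cannot feel, the cause of these moves was not tested.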
